A study of Mus musculus with 130 samples.

Results

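The skeletal myogenesis set consisted of 10 genes in the order in which muscle cells use them: the transcription factors Myf5, Myf6, Myod1 and Myog, the fusion protein Mymk, and the sarcomere genes Myh3, Myh8, Ttn, Tnnc2 and Acta1. They were found by symbol in the deposited table of read counts, 10 of 52550 genes, and each symbol occurred once. The series sequenced RNA, depleted of ribosomal RNA, from minced and flow-sorted embryos of wild-type mice of the FVB/NJ strain. All embryos carried FUCCI, a pair of fluorescent reporters of the cell cycle, and no group had another allele or an agent. Sorting gave a G0 gate (labelled BR), a G1 gate (DR), a G1-S gate (YE) and an S-G2-M gate (GR), and unsorted cells (US) were sequenced beside them. Each of 5 preparations gave these 5 fractions, with E10.5 represented by WT1 and WT2, E11.5 by WT3, and E13.5 by the preparations titled 5 and 8. The promoter of the reporter and the sorting windows were not given in the sources used here, nor was the number of embryos in a preparation. Adjusted p-values below therefore measure the spread between preparations, whatever these were. The gate comparisons over all days had fraction and day as terms and none for preparation. The spread behind their adjusted p-values therefore also holds any difference of a gate change between days.

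The myogenic factors are basic helix-loop-helix proteins that bind DNA with E protein partners and commit cells of the somites, limbs and head to the muscle lineage. Myf5 and Myod1 act in dividing myoblasts, Myf6 early in the somite and again in muscle fibres, and Myog is needed for the switch to differentiation. Differentiating myoblasts leave the cell cycle, fuse with each other through the membrane protein encoded by Mymk (myomaker), and build sarcomeres from myosin, actin, troponin and titin. Several sarcomere genes, Ttn and Acta1 among them, are also used by embryonic heart muscle.

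The 25 libraries held 14.7 to 58.5 M counts (median 22.9 M), and all 10 genes passed the filter on low counts. Preparations 5 and 8 differed from the WT-titled ones in day, in title style and in the share of mitochondrially encoded counts (1.66% to 3.42%, against 0.372% to 0.701% in WT1, WT2 and WT3), so that day and batch cannot be told apart. The gates followed their labels in a list of 8 genes of S to M phase (Mki67, Top2a, Ccnb1 and others), whose summed level was 4494 to 6098 CPM in S-G2-M and 51.2 to 137 CPM in G0. CPM values are read counts scaled to a common library total, with TMM factors that correct for library composition.

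Promoter sequences of 4 members are given because they come from different steps of the programme and their genes moved differently across the gates. They run from 250 bases before to 50 bases after the start of the gene (RefSeq, GRCm38.p6), and 7 of the 10 members had an entry. Capitals mark CANNTG, the E box to which basic helix-loop-helix factors bind, searched on both strands.
Myf5 (chr10:107486085-107486384, minus strand): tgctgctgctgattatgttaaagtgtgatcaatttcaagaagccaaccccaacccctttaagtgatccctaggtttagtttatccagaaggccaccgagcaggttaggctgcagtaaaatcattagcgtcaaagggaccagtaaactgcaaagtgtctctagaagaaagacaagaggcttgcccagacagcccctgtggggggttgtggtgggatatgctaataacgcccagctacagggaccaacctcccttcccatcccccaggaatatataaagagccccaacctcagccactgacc
Myog (chr1:134289754-134290053, plus strand): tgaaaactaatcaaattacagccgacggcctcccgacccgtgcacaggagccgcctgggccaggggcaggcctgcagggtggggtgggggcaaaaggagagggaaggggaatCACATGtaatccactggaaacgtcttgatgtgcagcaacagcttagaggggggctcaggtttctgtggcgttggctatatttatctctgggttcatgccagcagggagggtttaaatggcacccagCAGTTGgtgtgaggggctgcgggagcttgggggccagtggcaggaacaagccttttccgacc
Myh3 (chr11:67078050-67078349, plus strand): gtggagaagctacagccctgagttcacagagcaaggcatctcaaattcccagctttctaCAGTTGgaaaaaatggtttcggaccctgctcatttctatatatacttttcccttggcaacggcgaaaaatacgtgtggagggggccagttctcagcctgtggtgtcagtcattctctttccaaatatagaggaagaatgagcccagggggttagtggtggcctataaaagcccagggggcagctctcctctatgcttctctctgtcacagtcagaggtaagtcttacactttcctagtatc
Acta1 (chr8:123894726-123895025, minus strand): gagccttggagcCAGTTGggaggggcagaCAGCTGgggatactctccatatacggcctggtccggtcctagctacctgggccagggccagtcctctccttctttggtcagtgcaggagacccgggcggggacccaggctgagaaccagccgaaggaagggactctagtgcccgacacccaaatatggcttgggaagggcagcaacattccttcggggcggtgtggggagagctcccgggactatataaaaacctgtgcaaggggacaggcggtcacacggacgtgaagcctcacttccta
The Myf5 window held no CANNTG, the Myog window CACATG and CAGTTG at -138 and -12 from the start, the Myh3 window CAGTTG at -191, and the Acta1 window CAGTTG at -238 and CAGCTG at -221. CANNTG occurred in 72.3% of the 32851 promoters in that table, and CAGCTG, which is 1 form of it, in 16.3%. TATAAA was found in the Myf5, Myh3 and Acta1 windows and in 13.6% of promoters. It lay at -29 in Myh3, at -7 in Acta1 and 20 bases after the start in Myf5. Positions count from the RefSeq start, which for Myog and Acta1 is not the GENCODE start given below. The Acta1 window also held a CArG box at -73 (1.63% of promoters). None of the 4 held an exact match to the MEF2 motif searched, YTAWWWWTAR (3.19%), where Y is C or T, W is A or T and R is A or G. The Myog window holds ctatatttat, which differs from this motif in its last base, so a looser search would have counted it. In the windows of the other members with an entry, Myh8 and Tnnc2 had 2 E boxes each and Ttn had 1, and Myh8 and Ttn held a MEF2 match.

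**Figure D1:**
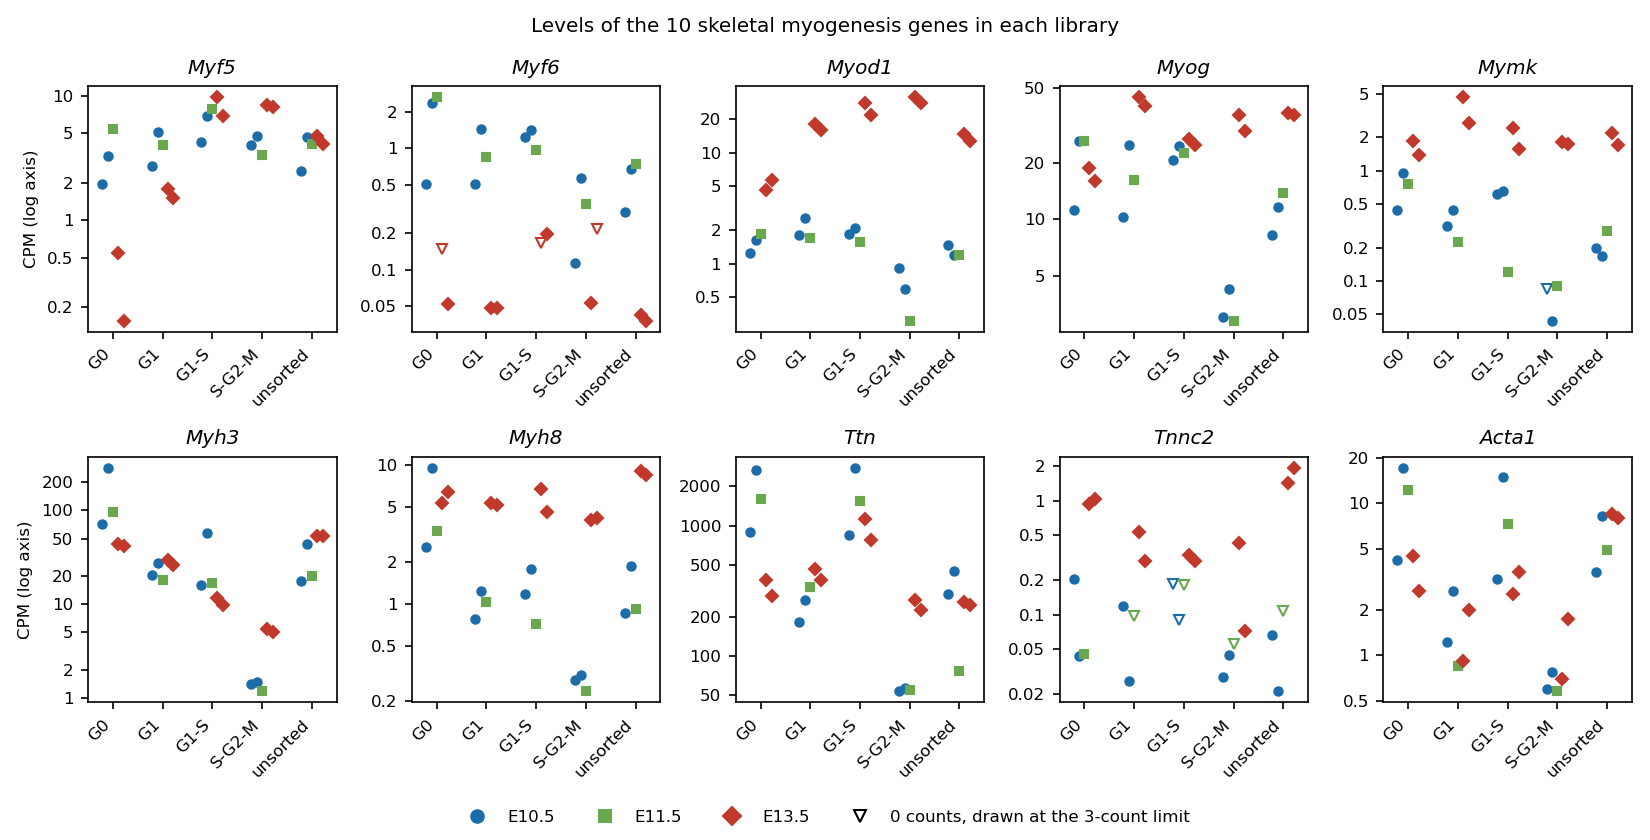
Level of each member in every library (CPM, log axis) by sorted gate and in unsorted cells, with a point for each preparation, colours for the embryonic day and open triangles for libraries at 0, drawn at the limit of 3 counts. In S-G2-M, Myod1 and Myog at E13.5 (28.2 to 31.6 and 29.7 to 35.98 CPM) stood far above E10.5 and E11.5 (0.309 to 0.911 and 2.90 to 4.27 CPM), while Myh3 was lowest in S-G2-M in all 5 preparations.

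Per length of transcript, the 10 genes spanned a wide range in unsorted cells. At E13.5 the order of the mean RPKM levels (CPM per kilobase of exon, n = 2) was Myog (24.3 ± 0.339, SD), Myh3 (8.75 ± 0.0226), Myod1 (7.42 ± 0.718), Acta1 (5.403 ± 0.238), then Ttn (2.16 ± 0.0636), Myf5 and Tnnc2, followed by Mymk (1.296 ± 0.2199), Myh8 (0.748 ± 0.0315) and Myf6 (0.0319 ± 0.00216). Ttn, Myf5 and Tnnc2 overlapped in range at that age and the other neighbours did not. At E10.5 Myog was also highest (6.64 ± 1.63 RPKM), but its range overlapped that of Myh3, and Tnnc2 had the lowest mean (0.05503 ± 0.0402 RPKM), with a range that overlapped that of Myh8. Myod1 stood at 0.715 ± 0.105 RPKM there, below Myf5 at 1.72 ± 0.733 RPKM, an order that was turned round at E13.5.

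Myf5, the factor that starts muscle commitment in the somite (ENSMUSG00000000435.1, chr10:107482908-107486134, minus strand), was highest in the G1-S gate in 4 of 5 preparations. In WT1, WT2 and WT3 its levels were 1.94, 3.27 and 5.36 CPM in G0, 2.71, 5.08 and 4.03 CPM in G1, 4.21, 6.89 and 7.89 CPM in G1-S and 4.01, 4.76 and 3.35 CPM in S-G2-M, against 2.503, 4.66 and 4.06 CPM in unsorted cells. In preparations 5 and 8 they were 0.543 and 0.156 CPM in G0, 1.79 and 1.51 CPM in G1, 9.73 and 6.91 CPM in G1-S and 8.34 and 8.11 CPM in S-G2-M, against 4.76 and 4.06 CPM in unsorted cells. The gates overlapped in the WT-titled preparations, and at E13.5 the G0 and G1 gates lay below every library of the other gates. Myf5 was higher in S-G2-M than in G0 over all 25 libraries (1.48 ± 0.53 log2 units, SE, n = 5 a gate, edgeR adjusted p = 0.0212). Within preparations 5 and 8 the log2 change was 4.47 ± 0.35 (adjusted p = 2.56e-08), and within WT1, WT2 and WT3 it was 0.23 ± 0.36 (adjusted p = 0.635).

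Myf6 (ENSMUSG00000035923.4, chr10:107492853-107494737, minus strand), the neighbour of Myf5 on chromosome 10, had almost no counts at E13.5. In WT1, WT2 and WT3 it stood at 0.5096, 2.35 and 2.64 CPM in G0, 0.512, 1.45 and 0.845 CPM in G1, 1.24, 1.43 and 0.964 CPM in G1-S and 0.114, 0.573 and 0.346 CPM in S-G2-M, against 0.3004, 0.681 and 0.748 CPM in unsorted cells. The 10 libraries of E13.5 held 0 to 4 counts each, at most 0.197 CPM, and the 0 counts in G0 of preparation 5 allow a level of up to 0.148 CPM (3 counts). Summed over the libraries of a day, 1 count at E13.5 stood against 69 at E10.5 in G0, which is 52.1-fold less in pooled CPM (exact 95% interval 9.04 to 2086, counting error only). In G1 it was 2 against 69 counts, 22.2-fold less (interval 5.92 to 187). Across the gates Myf6 was lower in S-G2-M than in G0 (-2.14 ± 0.59, adjusted p = 0.00341), a difference that rests on the WT-titled preparations (-2.37 ± 0.64, adjusted p = 0.00653), since the gene was too low for a fit within 5 and 8.

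Myod1, the factor that can turn fibroblasts into muscle (ENSMUSG00000009471.4, chr7:46376474-46379099, plus strand), changed both in level and in gate with age. Its levels in WT1, WT2 and WT3 were 1.26, 1.66 and 1.88 CPM in G0, 1.81, 2.56 and 1.72 CPM in G1, 1.86, 2.11 and 1.57 CPM in G1-S and 0.911, 0.595 and 0.309 CPM in S-G2-M, against 1.47, 1.19 and 1.21 CPM in unsorted cells. S-G2-M was the lowest gate in each of these preparations. In preparations 5 and 8 Myod1 stood at 4.64 and 5.71 CPM in G0, 18.2 and 15.9 CPM in G1, 27.8 and 22.1 CPM in G1-S and 31.6 and 28.2 CPM in S-G2-M, against 14.8 and 12.9 CPM in unsorted cells. There S-G2-M was the highest gate and G0 the lowest in both. S-G2-M differed from G0 by 2.48 ± 0.16 log2 units within 5 and 8 (adjusted p = 1.83e-09) and by -1.50 ± 0.36 within WT1, WT2 and WT3 (adjusted p = 0.00321). The fit over all days did not call the gene (0.48 ± 0.48, adjusted p = 0.42).

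Myog, the differentiation factor (ENSMUSG00000026459.5, chr1:134289989-134292548, plus strand), was the most abundant of the 4 factors per length in unsorted cells at E13.5 and at E10.5. In WT1, WT2 and WT3 it stood at 11.2, 26.3 and 26.1 CPM in G0, 10.3, 24.99 and 16.1 CPM in G1, 20.8, 24.5 and 22.6 CPM in G1-S and 3.02, 4.27 and 2.895 CPM in S-G2-M, against 8.21, 11.7 and 13.9 CPM in unsorted cells. The 3 S-G2-M libraries lay below every other library of these preparations. At E13.5 the levels were 18.9 and 16.04 CPM in G0, 44.8 and 40.1 CPM in G1, 26.6 and 24.8 CPM in G1-S and 35.98 and 29.7 CPM in S-G2-M, against 36.6 and 35.9 CPM in unsorted cells. G1 was highest and G0 lowest in both preparations. Set against G0, Myog in S-G2-M differed by 0.86 ± 0.12 within 5 and 8 (adjusted p = 1.36e-05) and by -2.66 ± 0.36 within the WT-titled preparations (adjusted p = 2.41e-05), and over all days it was not called (-1.05 ± 0.48, adjusted p = 0.0685).

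Mymk, whose product lets myoblasts fuse (ENSMUSG00000009214.9, chr2:27061636-27072179, minus strand), was higher at E13.5 than before in every fraction. Its levels in WT1, WT2 and WT3 were 0.442, 0.959 and 0.759 CPM in G0, 0.315, 0.4402 and 0.228 CPM in G1, 0.619, 0.654 and 0.1204 CPM in G1-S and 0, 0.0441 and 0.09103 CPM in S-G2-M, against 0.2003, 0.1704 and 0.285 CPM in unsorted cells. The S-G2-M libraries of WT1, WT2 and WT3 held 0, 2 and 5 counts. At E13.5 it stood at 1.88 and 1.402 CPM in G0, 4.63 and 2.69 CPM in G1, 2.43 and 1.58 CPM in G1-S and 1.82 and 1.74 CPM in S-G2-M, against 2.19 and 1.72 CPM in unsorted cells. All 10 libraries of E13.5 lay above all 15 of E10.5 and E11.5. In S-G2-M, 58 counts at E13.5 stood against 2 at E10.5, which is 71.8-fold more in pooled CPM (exact 95% interval 19.0 to 607, counting error only). The S-G2-M gate differed from G0 by 0.067 ± 0.36 within 5 and 8 (adjusted p = 0.891) and by -3.77 ± 0.75 within the WT-titled preparations (adjusted p = 0.000783).

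Myh3, the embryonic myosin heavy chain (ENSMUSG00000020908.14, chr11:67078300-67102291, plus strand), had the largest log2 change of the 10 members between S-G2-M and G0 in the fit over all days, while within 5 and 8 that of Myf5 was larger. It stood at 71.1, 286 and 96.8 CPM in G0, 20.3, 27.6 and 18.1 CPM in G1, 16.2, 57.1 and 16.6 CPM in G1-S and 1.395, 1.48 and 1.18 CPM in S-G2-M of WT1, WT2 and WT3, against 17.8, 43.4 and 19.9 CPM in unsorted cells. At E13.5 it stood at 43.5 and 41.7 CPM in G0, 29.9 and 26.2 CPM in G1, 11.5 and 9.72 CPM in G1-S and 5.4 and 4.998 CPM in S-G2-M, against 53.1 and 52.9 CPM in unsorted cells. G0 was the highest and S-G2-M the lowest gate in all 5 preparations, and the 2 gates did not overlap. S-G2-M differed from G0 by -5.34 ± 0.66 log2 units over all days (SE, n = 5 a gate, adjusted p = 4.57e-07), by -3.08 ± 0.13 within 5 and 8 and by -6.785 ± 0.61 within the WT-titled preparations. In bulk libraries fewer cells of a type and less RNA per cell cannot be told apart, in this and every other result.

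Myh8, the perinatal myosin heavy chain of the same gene cluster (ENSMUSG00000055775.16, chr11:67277124-67308634, plus strand), was low in the early libraries and showed a similar gradient there. In WT1, WT2 and WT3 it stood at 2.58, 9.63 and 3.35 CPM in G0, 0.787, 1.24 and 1.04 CPM in G1, 1.18, 1.78 and 0.723 CPM in G1-S and 0.285, 0.308 and 0.237 CPM in S-G2-M, against 0.868, 1.87 and 0.926 CPM in unsorted cells. At E13.5 the 4 gates lay close together, at 5.33 and 6.44 CPM in G0, 5.36 and 5.22 CPM in G1, 6.75 and 4.64 CPM in G1-S and 4.01 and 4.201 CPM in S-G2-M, against 9.06 and 8.54 CPM in unsorted cells. The S-G2-M gate differed from G0 by -0.57 ± 0.21 within 5 and 8 (adjusted p = 0.0298) and by -4.20 ± 0.51 within the WT-titled preparations (adjusted p = 8.79e-06). Myosin heavy chain genes are close paralogs, so the split of reads between Myh3, Myh8 and their relatives is uncertain.

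Ttn, the giant spring protein of the sarcomere in skeletal and heart muscle (ENSMUSG00000051747.14, chr2:76703980-76982547, minus strand), had 2 high gates. In WT1, WT2 and WT3 it stood at 899.8, 2671 and 1612 CPM in G0, 184, 272 and 338 CPM in G1, 841, 2783 and 1556 CPM in G1-S and 53.99, 57.2 and 55.2 CPM in S-G2-M, against 299, 450.3 and 76.3 CPM in unsorted cells. Each library of G0 and G1-S lay above each of G1 and S-G2-M. At E13.5 the levels were 383 and 287 CPM in G0, 468 and 381 CPM in G1, 1134 and 776 CPM in G1-S and 269 and 227 CPM in S-G2-M, against 258 and 247 CPM in unsorted cells. Only the G1-S gate stood out. Ttn was higher in G1-S than in G1 by 2.10 ± 0.62 log2 units (adjusted p = 0.0207) and lower in S-G2-M than in G1-S (-3.44 ± 0.67, adjusted p = 0.00139), and both held within each set of preparations.

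Acta1, skeletal alpha-actin (ENSMUSG00000031972.5, chr8:123891769-123894751, minus strand), was also higher in G0 and G1-S than in G1 and S-G2-M of each WT-titled preparation. It stood at 4.21, 17.2 and 12.3 CPM in G0, 1.22, 2.64 and 0.845 CPM in G1, 3.16, 14.97 and 7.35 CPM in G1-S and 0.598, 0.771 and 0.583 CPM in S-G2-M of WT1, WT2 and WT3, against 3.54, 8.24 and 4.92 CPM in unsorted cells. At E13.5 it stood at 4.49 and 2.65 CPM in G0, 0.917 and 2.002 CPM in G1, 2.54 and 3.55 CPM in G1-S and 0.695 and 1.74 CPM in S-G2-M, against 8.56 and 8.04 CPM in unsorted cells. S-G2-M was the lowest gate in all 5 preparations. S-G2-M differed from G0 by -1.67 ± 0.43 within 5 and 8 (adjusted p = 0.00444) and by -4.15 ± 0.64 within the WT-titled preparations (adjusted p = 7.9e-05).

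Tnnc2, the calcium sensor of fast skeletal muscle (ENSMUSG00000017300.9, chr2:164777161-164779967, minus strand), had very few counts before E13.5. The 15 libraries of WT1, WT2 and WT3 held 0 to 6 counts each, and those of the G1-S gate held 0. At E13.5 it stood at 0.938 and 1.04 CPM in G0, 0.531 and 0.293 CPM in G1, 0.332 and 0.296 CPM in G1-S and 0.428 and 0.0724 CPM in S-G2-M, against 1.43 and 1.95 CPM in unsorted cells. In unsorted cells 85 counts at E13.5 stood against 3 at E10.5. This is 43.7-fold more in pooled CPM (exact 95% interval 14.5 to 216, counting error only). In G1-S 12 counts stood against 0, at least 5.19-fold more when the 0 is set at 3 counts over the group, with an exact 95% lower limit of 3.61-fold when the error of the 12 counts is also allowed for. Of its exon length, 74.0% lies under exons of Ube2c on the other strand, and the strand setting of the counting is not given in the sources used here. Ube2c, a mitotic ubiquitin enzyme, stood at 240.0 CPM or more in S-G2-M of preparations 5 and 8 and at 86.7 to 114 CPM in S-G2-M of the WT-titled ones, and its part in the Tnnc2 counts was not tested. In S-G2-M against G0 the log2 change of Tnnc2 was -1.915 ± 0.64 (adjusted p = 0.0136).

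**Figure D2:**
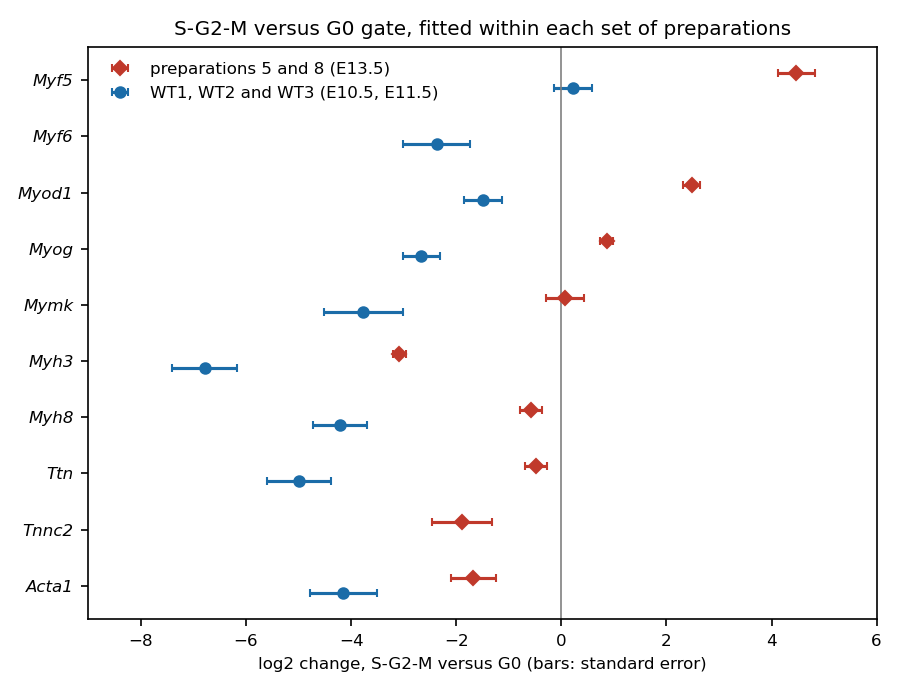
Log2 change of each member between the S-G2-M and G0 gates, fitted within preparations 5 and 8 (E13.5) and within WT1, WT2 and WT3 (E10.5 and E11.5), with standard errors. Myf6 was too low for the fit of E13.5 and Tnnc2 for that of the WT-titled preparations. Myod1 and Myog lie right of 0 at E13.5 (2.48 and 0.86) and left of it in the WT-titled preparations (-1.50 and -2.66), and Myh3 lies left in both.

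The comparison of dividing cells with those outside the cycle, S-G2-M against G0, called 8 of the 10 members over all days, 7 lower and 1 higher in S-G2-M, at a median log2 change of -2.03. Of all 23506 genes tested, 54.2% were called, with a median of -0.01. The members lower in S-G2-M were the Myf6 factor, Mymk and all 5 sarcomere genes, though Ttn (-0.48, adjusted p = 0.0817) and Mymk (0.067, adjusted p = 0.891) did not pass the test within 5 and 8, nor did Myf5 within WT1, WT2 and WT3 (0.23, adjusted p = 0.635). Myh8 stood at -2.73 ± 0.50 (adjusted p = 5.96e-05), Ttn at -3.18 ± 0.68 (adjusted p = 0.000434), Acta1 at -3.24 ± 0.575 (adjusted p = 4.36e-05) and Mymk at -1.68 ± 0.56 (adjusted p = 0.0143). Within 5 and 8, 3 were higher and 4 lower of 9 tested (55.9% of all genes were called), and within WT1, WT2 and WT3, 0 were higher and 8 lower of 9 tested (47.4% of all genes). Mymk lost its call without WT1, WT2 or WT3 (-1.40, -1.21 and -1.28). Calls were also lost for Myf5 without 5 or 8 (1.03 and 0.935), Myf6 without WT3 (-1.70) and Tnnc2 without 8 (-1.62).

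In G1 against G0, 4 members were lower in G1 and none higher (36.3% of all genes were called). These were sarcomere genes: Myh3 (-2.11 ± 0.55, adjusted p = 0.00434), Myh8 (-1.70 ± 0.47, adjusted p = 0.0064), Ttn (-1.83 ± 0.63, adjusted p = 0.0261) and Acta1 (-2.37 ± 0.54, adjusted p = 0.00122). The factors and Mymk did not pass the test, with log2 changes between -0.75 for Myf6 and 0.79 for Myod1, nor did Tnnc2 (-1.28). Within 5 and 8 (43.2% of all genes called) the picture was another one, with Myf5 (2.19), Myod1 (1.71), Myog (1.27) and Mymk (1.14) higher in G1 and Myh3 (-0.615) and Acta1 (-1.305) lower, each past the test, while Myh8 (-0.17) and Ttn (0.33) did not pass it. Ttn lost its call without WT1, WT2 or WT3 (-1.60, -1.285 and -1.57) and Myh8 without WT2 (-1.08).

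At the entry into S phase, G1-S against G1, 2 members were higher in G1-S, Ttn and Acta1 (2.01 ± 0.53, adjusted p = 0.00996), and none was lower (18.9% of all genes were called). Within 5 and 8, Myf5 (2.28), Myod1 (0.50) and Ttn (1.12) were higher in G1-S and Myog (-0.77), Mymk (-0.92) and Myh3 (-1.45) lower (40.6% of all genes were called), and Acta1 did not pass the test (1.02, adjusted p = 0.0577). Ttn and Acta1 also moved in the next step, S-G2-M against G1-S. There 4 members were lower in S-G2-M and none higher (17.4% of all genes): Myh3 (-3.05 ± 0.62, adjusted p = 0.00193), Ttn, Acta1 (-2.88 ± 0.57, adjusted p = 0.00144) and Myf6 (-1.85 ± 0.60, adjusted p = 0.0346). Within the WT-titled preparations alone, 7 were lower in that step (10.4% of all genes were called), with Myog (-2.75), Mymk (-3.155), Myod1 (-1.67) and Myh8 (-2.135) in place of Myf6 (-1.82, adjusted p = 0.0883). Within 5 and 8, Myog was higher in S-G2-M than in G1-S (0.365 ± 0.12, adjusted p = 0.033). Over all days S-G2-M against G1 called 3 members, all lower in S-G2-M: Myh3 (-3.23 ± 0.61), Mymk (-1.48 ± 0.53) and Myog (-1.22 ± 0.46, adjusted p = 0.0498), beside 29.5% of all genes. Within 5 and 8, Myf5 (2.28) and Myod1 (0.77) were higher in S-G2-M than in G1 and 4 members lower (40.0% of all genes called). Within WT1, WT2 and WT3, 6 were lower and 0 higher (19.2%), with Myod1 at -1.83. Of the calls over all days, Ttn in G1-S against G1 was lost without WT1, WT2 or WT3 (1.96, 1.67 and 1.999) and Acta1 there without WT3 (1.745). The call was lost for Myf6 in S-G2-M against G1-S without WT1, WT3 or 8 (-1.52, -1.90 and -1.63). In S-G2-M against G1, Myog was lost without WT1, WT2 or WT3 (-1.08, -0.92 and -1.004) and with a replicate block (-1.19, adjusted p = 0.0503). With the block Myf6 was also called lower there (-1.43, adjusted p = 0.0315). Mymk was lost there without WT1, WT2, WT3 or 5 (-1.30, -1.32, -1.47 and -1.595).

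Set against the unsorted cells, the G0 gate was enriched in 4 members and depleted in none: Myf6 (1.425 ± 0.56, adjusted p = 0.03), Myh3 (1.51 ± 0.55, adjusted p = 0.0207), Myh8 (1.23 ± 0.46, adjusted p = 0.0241) and Ttn (2.20 ± 0.63, adjusted p = 0.00447), beside 63.2% of all genes. In G1 only Acta1 passed the test over all days, lower than in unsorted cells (-2.18 ± 0.53, 45.3% of all genes). In G1-S Ttn was higher (2.47 ± 0.63) and Tnnc2 lower (-2.22 ± 0.63, 33.1% of all genes). In S-G2-M Myh3 (-3.83 ± 0.62), Myh8 (-1.49 ± 0.47), Tnnc2 (-1.985 ± 0.61) and Acta1 (-3.05 ± 0.565) were lower and none was higher (30.1% of all genes). At E13.5 the unsorted cells stood above each of the 4 gates in both preparations for Myh3, Myh8, Tnnc2 and Acta1, and in none of the WT-titled preparations did they do so for any member. Within 5 and 8 (69.8% of all genes called) the G0 gate was lower than unsorted cells in 5 members, Myf5 (-3.48, adjusted p = 6.34e-07), Myod1 (-1.28, adjusted p = 3.71e-06), Myh8 (-0.45, adjusted p = 0.0452), Acta1 (-1.08, adjusted p = 0.00939) and Myog (-0.92, adjusted p = 4.41e-06), and higher in Ttn (0.54, adjusted p = 0.0449). Myh3 did not pass the test (-0.18, adjusted p = 0.135). The other gates also differed there from the fit over all days. Of 9 members tested within 5 and 8, 4 were higher and 5 lower in G1 than in unsorted cells (61.1% of all genes called). In G1-S 3 were higher and 5 lower (45.4%), and in S-G2-M 2 were higher and 4 lower (54.7%). A list of 6 erythroid markers summed to 30350 to 35130 CPM in unsorted cells at E13.5, compared with 1928 to 2874 CPM in G1 and 210 to 261 CPM in S-G2-M of that day, and the part of sorting in these differences was not tested. Of the calls in G0, Myh3 and Myh8 were lost without WT1, WT2 or WT3 (Myh3 1.28, 1.02 and 1.375, Myh8 1.06, 0.70 and 1.14) and Myf6 without WT2 or WT3 (1.16 and 1.25). Of the calls in the other gates Tnnc2 was lost without 8 (-1.89 in G1-S and -1.04 in S-G2-M) and Myh8 without WT3 (-1.28). With a replicate block Tnnc2 was also called lower in G1 than in unsorted cells (-1.40, adjusted p = 0.0493).

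**Figure D3:**
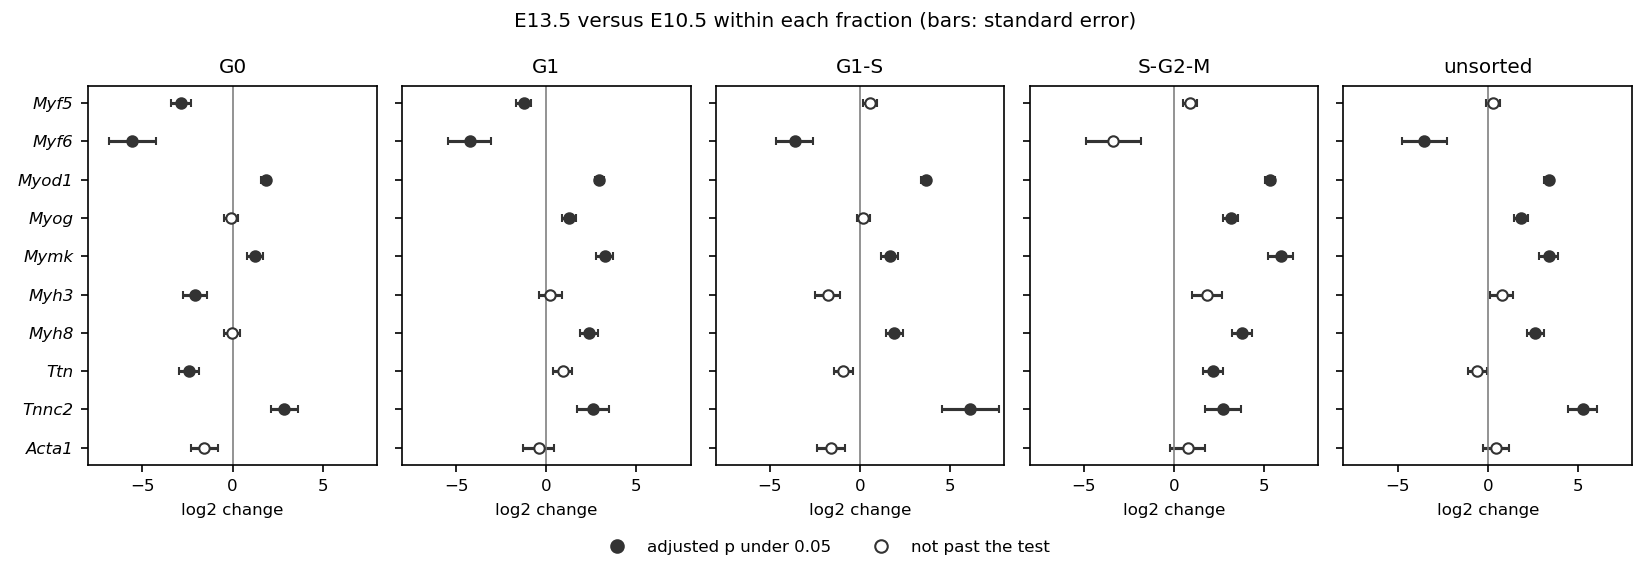
Log2 change of each member between E13.5 (preparations 5 and 8) and E10.5 (WT1 and WT2) within each fraction, with standard errors; filled points passed the test. Myod1 and Mymk lie right of 0 in all 5 fractions, and Myf6 lies left in all 5.

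With age, E13.5 against E10.5 within a fraction, the set moved apart: Myod1, Mymk and Tnnc2 were higher in all 5 fractions, and Myf6 was lower in 4 of 5. Tnnc2 passed the filter on low counts only through libraries of E13.5, and Myf6 only through those of E10.5 and E11.5. Their calls between days, which the counts below include, are therefore no separate support for a change with age. DESeq2 did not call Mymk in G0 (1.21) or Tnnc2 in G1 (2.61) and S-G2-M (2.845), and with no filter on low counts Tnnc2 in S-G2-M was also lost (2.71). In unsorted cells 5 members were higher and 1 lower at E13.5 (53.8% of all genes were called). Myod1 (3.38 ± 0.25, adjusted p = 2.74e-08), Myog (1.86 ± 0.385, adjusted p = 0.00112), Mymk (3.38 ± 0.51, adjusted p = 4.56e-05), Myh8 (2.65 ± 0.47, adjusted p = 0.000194) and Tnnc2 were higher and Myf6 was lower. In S-G2-M 6 were higher and none lower (43.0% of all genes). Myod1 (5.32 ± 0.275, adjusted p = 4.44e-10) and Mymk (5.93 ± 0.69, adjusted p = 4.51e-06) had their largest log2 changes there, beside Myog (3.16), Myh8 (3.765), Tnnc2 (2.71) and Ttn (2.16). In G0 3 were higher and 4 lower (42.9% of all genes): Myf5 (-2.855 ± 0.53, adjusted p = 0.000368), Myf6, Myh3 (-2.07 ± 0.65, adjusted p = 0.0244) and Ttn (-2.41 ± 0.56, adjusted p = 0.0045) were the lower ones. In G1 5 were higher and 2 lower (47.1% of all genes), with Myf5 (-1.25 ± 0.415) and Myf6 lower and Myog (1.26 ± 0.38) and Myh8 (2.35 ± 0.49) among the higher. In G1-S 4 were higher and 1 lower (39.7% of all genes). Myh3 and Acta1 did not pass the test in unsorted cells (0.79 and 0.48). Fitted values of Myf6, Tnnc2 and, in S-G2-M, Mymk rest on very few counts on 1 side and depend on the prior count. The count ratios above use no prior count, but their intervals leave out the spread between preparations. Those of Myf6 and Tnnc2 come from the same counts as the calls and are no separate support either. With only 1 of preparations 5 and 8 kept, 12 of 26 calls that could be refitted (without 5) and 15 of 31 (without 8) were lost. Calls that held with each of WT1, WT2, 5 and 8 left out were those of Myod1 in all 5 fractions, Mymk and Myh8 in G1, S-G2-M and unsorted cells, Myog in S-G2-M and unsorted cells, and Myf5 in G0. Tnnc2, which could not be refitted without 5, held in unsorted cells with each of WT1, WT2 and 8 left out.

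The gate change itself differed between the days. For S-G2-M against G0, 7 of 10 members differed at E13.5 from E10.5, all with a more positive change at E13.5 (8.65% of all genes were called, with a median of -0.06 against 3.62 for the members). They were Myf5 (3.76 ± 0.66, adjusted p = 0.00135), Myod1 (3.49 ± 0.37, adjusted p = 1.2e-05), Myog (3.26 ± 0.56, adjusted p = 0.00197), Mymk (4.68 ± 0.88, adjusted p = 0.00246), Myh3 (3.92 ± 1.06, adjusted p = 0.0429), Myh8 (3.81 ± 0.72, adjusted p = 0.0024) and Ttn (4.57 ± 0.795, adjusted p = 0.00388). In G0 the 10 neuronal markers summed to 7837 to 9273 CPM in WT1, WT2 and WT3 and 5129 to 5357 CPM in 5 and 8. The 10 limb and somite mesenchyme markers summed there to 557.5 to 1411 CPM and 5503 to 6323 CPM. The part of such cells in these differences was not tested. For S-G2-M against G1-S the difference was called for Myod1 (1.69 ± 0.35), Myog (2.98 ± 0.55) and Mymk (4.29 ± 0.89), beside 1.02% of all genes. For G1 against G0 it was called for Ttn alone (3.31 ± 0.78, 3.51% of all genes). G1-S against G1 gave 0 calls by edgeR (3 members at an unadjusted p under 0.05) and 1 by DESeq2, beside 5.31% of all genes by edgeR, and with the replicate block 4 members passed. Without 5 or without 8, only Myod1 in S-G2-M against G0 kept its call (1 library a gate is then left at E13.5, and the direction stayed the same in the other 10 calls), and without WT2 Myod1 in S-G2-M against G1-S was also lost (1.30). With the replicate block, the preparation as a term, the calls numbered 6 in G1 against G0 and 5 in S-G2-M against G1-S. In S-G2-M against G0 they numbered 8. The shares of all genes called with DESeq2 and with the block are not given here. Counts from those fits are therefore not read as a result about the members.

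**Figure D4:**
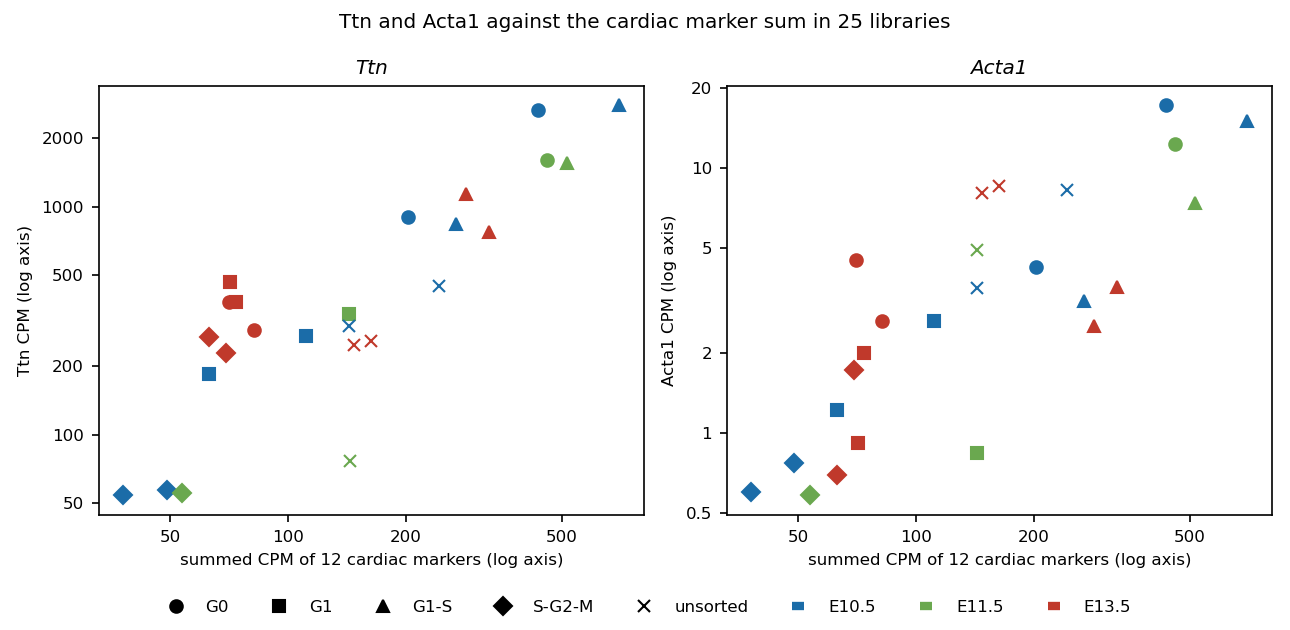
Ttn and Acta1 levels (CPM, log axes) against the summed level of 12 heart markers in the 25 libraries, with symbols for the fraction and colours for the day. Libraries of S-G2-M from E10.5 and E11.5 lie at the lower left (38.04 to 53.8 CPM of heart markers) and those of G1-S to the right (269 to 702 CPM).

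Markers of heart muscle moved with Ttn and Acta1. The 12 markers (Myh6, Myl2, Myl7, Nppa, Nppb, Nkx2-5, Tnni3, Mybpc3, Tbx5, Tbx20, Gata4 and Ryr2) summed to 203 to 459 CPM in G0, 62.9 to 144 CPM in G1, 269 to 702 CPM in G1-S and 38.04 to 53.8 CPM in S-G2-M of WT1, WT2 and WT3. In preparations 5 and 8 they summed to 70.6 to 81.8 CPM in G0, 71.4 to 73.5 CPM in G1, 284 to 325 CPM in G1-S and 63.0 to 69.5 CPM in S-G2-M, with Nppb at 0 in libraries of G0, G1 and S-G2-M. Of the 12, 8 were higher and 0 lower in G1-S than in G1 (18.9% of all genes called), 1 higher and 11 lower in S-G2-M than in G1-S (17.4%), and 1 higher and 7 lower in S-G2-M than in G0 (54.2%). The 25 libraries differed in depth, gate and day. Across them the log2 level of Ttn had a Pearson r of 0.85 with the heart marker sum, Acta1 of 0.81 and Myh3 of 0.60. Myog had 0.39, Mymk 0.16 and Myod1 -0.03. The 8 smooth muscle markers were Acta2, Myh11, Tagln, Cnn1, Smtn, Myocd, Lmod1 and Des. Des is also in the list of thin filament and Z disc genes below, so their sum is not separate from skeletal muscle. The summed level of the 8 had an r of 0.82 with Myod1 and with Myog, 0.80 with Myh8 and 0.78 with Mymk. It stood at 257 to 277 CPM in S-G2-M of preparations 5 and 8 and at 51.1 to 67.0 CPM in that of the WT-titled ones. The share of heart or smooth muscle cells in any of these results was not tested.

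Within the set, Mymk was most like Myh8 (r = 0.90 over 25 libraries) and Myog (0.87), Myod1 was like Mymk (0.84), and Myf6 ran against Tnnc2 (-0.74) and Myod1 (-0.71). Among all genes, the 5 most like Myog were Lama3 (r = 0.926), Anxa2 (0.900), Acta2 (0.890), Trim47 (0.887) and Adrb1 (0.884). Those most like Acta1 were Tnnc1 (0.883), the cardiac and slow troponin C, Vwf (0.877), Unc45b (0.869), a myosin chaperone, Myl4 (0.863), an atrial and embryonic myosin light chain, and Smyd1 (0.858), a methyltransferase of striated muscle. For Myf5 they were Espn (0.845), Msn (0.844), Tmem54 (0.844), Cldn7 (0.834) and Hey1 (0.831). These correlations describe the libraries and carry no test.

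The other genes of the programme were taken from 6 lists of 100 gene symbols, 98 of which were found in the table. Of 14 genes that act upstream of the factors, 10 were higher and 2 lower in S-G2-M than in G0 (median 0.87, against -0.01 for all genes, of which 54.2% were called). Meox2 (2.405 ± 0.41, adjusted p = 2.73e-05) and Meox1 (2.165 ± 0.48), homeobox factors of the somite, were higher. Lbx1 (-2.56 ± 0.30), a factor of migrating limb muscle precursors and of spinal neurons, and Eya2 (-1.13 ± 0.20) were lower. Pax3, the paired-box factor of muscle precursors and dorsal neural tube, was higher in G1 than in G0 (1.95 ± 0.25, adjusted p = 1.89e-06) and lower at E13.5 than at E10.5 in unsorted cells (-1.74 ± 0.16). Msc (musculin) was higher at E13.5 in unsorted cells (2.805 ± 0.31, adjusted p = 1.86e-06). Its S-G2-M against G0 change was higher at E13.5 than at E10.5 by 4.65 ± 0.46 (adjusted p = 6.84e-06). Of 11 E protein, MEF2 and inhibitor genes tested, 7 were higher and 2 lower in S-G2-M than in G0 (median 0.29, 54.2% of all genes called). These included the inhibitors Twist1 (2.52 ± 0.35) and Id1 (2.005 ± 0.23) on the higher side and Mef2a (-0.47 ± 0.12) and Mef2d (-0.375 ± 0.13) on the lower. Limb and somite mesenchyme markers, of which Twist1 is 1, were also 5 higher and 1 lower of 10 in that comparison.

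Of 12 adhesion and fusion genes, 3 were higher and 6 lower in S-G2-M than in G0 (median -0.25, beside 54.2% of all genes called). Boc (1.69 ± 0.22) and Cdon (1.22 ± 0.13), co-receptors that promote myoblast differentiation and also act in Hedgehog signalling, were higher. Itga7 (-2.85 ± 0.48), the laminin receptor of muscle, and Ncam1 (-2.40 ± 0.16), which neurons also carry, were lower, beside 0 higher and 10 lower of 10 neuronal markers. Cdh15 (M-cadherin) and Itga7 had a higher S-G2-M against G0 change at E13.5 than at E10.5 (3.02 ± 0.415 and 3.33 ± 0.44). Of 14 thick filament genes tested, 0 were higher and 11 lower in S-G2-M than in G0 (median -2.55, 54.2% of all genes called), led by Unc45b (-3.89 ± 0.46) and Myh7 (-3.68 ± 0.76), the slow and cardiac myosin. Of 22 genes of the thin filament and Z disc, 0 were higher and 15 lower in that comparison (median -2.04), led by Xirp1 (-4.30 ± 0.70). In G1-S, 6 of 14 and 10 of 22 were higher than in G1 and none lower, and the other 8 and 12 did not pass the test (18.9% of all genes were called). Among the higher ones were Myh7 (4.37 ± 0.74) and Xirp1 (3.92 ± 0.63), genes that the heart also uses (Myh7 5.36 and Xirp1 5.65 log2 units within 5 and 8, 3.65 and 3.19 within WT1, WT2 and WT3). Neb (nebulin), a thin filament ruler of skeletal muscle, was higher at E13.5 in unsorted cells (2.25 ± 0.41, adjusted p = 0.000585). Of 22 synapse, calcium and metabolism genes, 8 were higher and 1 lower at E13.5 in unsorted cells (median 1.18, against -0.08 for all genes), and the share called was below the 53.8% of all genes. Among them were the acetylcholine receptor subunits Chrna1 (2.75 ± 0.53) and Chrnb1 (1.58 ± 0.26), which were higher, and the enolase Eno3, which was lower (-2.05 ± 0.26). In S-G2-M against G0 this list had 1 higher and 12 lower (median -1.03), a share near the 54.2% of all genes, with Casq2 (-4.20 ± 0.53), a cardiac calsequestrin, and Atp2a1 (-1.58 ± 0.35), the calcium pump of fast fibres, among the lower.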

How the data were processed

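Raw counts of reads per gene, in 130 columns of a single table, were deposited by the authors; STAR 2.5.3, HTSeq 0.8.0 and mm10 are named in the submitters' processing notes, and library kit, strand setting and gene annotation were not given in the sources used here. Lane columns were summed to 25 libraries, since lanes of a library differed little beyond sampling noise (dispersion 1.09 to 1.23, limit 1.5). Some lane columns of WT1 and WT3 could be tied to their fraction and preparation and not to a single lane record, which leaves the sums as they are.

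CPM used TMM-scaled totals (edgeR 4.0.16), and RPKM also the union of exons of GENCODE M21. Genes passing filterByExpr (minimum count 10, minimum total 15; 23506 of 52550) were tested with edgeR's quasi-likelihood F test (limma 3.58.1, R 4.3.3) with Benjamini-Hochberg adjustment over all of them at a threshold of 0.05. Gates were compared with fraction and day as terms, and days with a mean for each fraction and day. Standard errors of log2 changes were taken from the F statistic. Intervals and limits from 3 counts cover counting error only. Alternatives were RLE factors, DESeq2 1.42.0, no filter, removal of Gm26917 and Gm42418, leaving out each preparation, fits within each set of preparations, and a replicate block. Fractions of the same preparation deviated together (r 0.317 to 0.664 for E13.5 and 0.118 to 0.743 for E10.5, 10 pairs of fractions each, 11129 genes), so the preparation pairs them. The members and lists were chosen with earlier results of these data known. All members are named; of each other muscle list, up to 2 genes per direction with the largest called change and a log2 CPM of at least 1; and the 5 genes most like Myf5, Myog and Acta1 by Pearson r of log2 CPM (prior count 0.5). Not every gene that this rule names is reported here.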

Additional observations from a re-analysis of the deposited data

Results flagged for a closer look

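Of 50 groups of 5 libraries (10 members in 5 fractions), 2 had a library far from the others. Chance flags about 1 group in 20 where all 5 libraries are of the same kind. Each group here mixed embryonic days, so that rate does not apply and nothing is concluded from the number flagged. Myf5 in unsorted cells was lowest in WT1 (2.503 CPM), with a gap to the next library of 0.751 of the whole range. Acta1 in S-G2-M was highest in preparation 8 (1.74 CPM), with a gap of 0.746 of the range.

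Of 40 differences in a gate change between E13.5 and E10.5 that were tested, 11 passed, each with a more positive change at E13.5. For G1 against G0 this was Ttn (3.31 log2 units), beside 3.51% of all genes. G1-S against G1 gave 0 calls, beside 5.31% of all genes. For S-G2-M against G1-S these were Myod1 (1.69), Myog (2.98) and Mymk (4.29), beside 1.02% of all genes. For S-G2-M against G0 these were Myf5 (3.76), Myod1 (3.49), Myog (3.26), Mymk (4.68), Myh3 (3.92), Myh8 (3.81) and Ttn (4.57). Day and batch cannot be told apart in any of them.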

How the results depend on the processing

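All 32 gate calls of the members kept their direction and call under RLE factors, DESeq2, no filter and without Gm26917 and Gm42418. Of the 31 calls between days, DESeq2 ended 3 and no filter 1, and RLE factors and the removal of Gm26917 and Gm42418 ended none. Of the 32 gate calls, the replicate block, with the preparation as a paired term, ended 1, Myog in S-G2-M against G1 (-1.19). Leaving out 1 preparation ended 2 to 12 of the gate calls. The block was not fitted to the calls between days. The sign turned within preparations 5 and 8 for G1 against G0 in Mymk (1.14) and Ttn (0.33), for G1-S against G1 in Myog (-0.77), for S-G2-M against G1-S in Myog (0.36), for S-G2-M against G0 in Myog (0.86) and Mymk (0.067), for S-G2-M against G1 in Myod1 (0.77), for G0 against unsorted in Myog (-0.92), Myh3 (-0.18), Myh8 (-0.45) and Acta1 (-1.08), and for G1-S against unsorted in Myog (-0.42). It turned within WT1, WT2 and WT3 for Myod1 in S-G2-M against G0 (-1.50). Without WT2 it turned for Myog (0.61) and Myh8 (1.16) at E13.5 against E10.5 in G0, which were -0.60 and -0.73 without WT1. The cause was not tested. A further 59 sign changes concerned values called in neither fit.

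Counts of called members moved by over 1.5 times as follows. Within 5 and 8 they were 6 for G1-S against G1 and 6 for S-G2-M against G1 (40.6% and 40.0% of all genes called). They were 9 for G1 against unsorted and 8 for G1-S against unsorted there (61.1% and 45.4%). Within the WT-titled preparations they were 7 for S-G2-M against G1-S, 6 for S-G2-M against G1 and 1 for G1-S against unsorted. The shares of all genes called were 10.4%, 19.2% and 15.4%. For the settings that follow, the share of all genes is not given here, so these counts are not read as a result about the members. With DESeq2 there were 7 for S-G2-M against G1-S, and 3, 1 and 5 for the difference between days in G1 against G0, G1-S against G1 and S-G2-M against G1-S. With no filter there were 7 for S-G2-M against G1-S, 8 for S-G2-M against G1, 4 for G1 against unsorted, 6 for G1-S against unsorted, 8 for E13.5 against E10.5 in G1-S, and 4, 4 and 7 for those 3 differences between days. With the replicate block there were 2 for G1 against unsorted and 6, 4 and 5 for the 3 differences. With 1 preparation left out, the counts ran from 2 to 4 for G1 against G0, 0 to 2 for G1-S against G1, 3 to 5 for S-G2-M against G1-S, 7 to 7 for S-G2-M against G0, 1 to 3 for S-G2-M against G1, and 1 to 4, 1 to 2, 1 to 3 and 3 to 4 for G0, G1, G1-S and S-G2-M against unsorted. For E13.5 against E10.5 they ran from 2 to 9 in G0, 3 to 7 in G1, 1 to 8 in G1-S, 4 to 8 in S-G2-M and 4 to 9 in unsorted cells, and for the differences between days from 0 to 5, 0 to 4, 0 to 7 and 1 to 8, with S-G2-M against G0 last. Depth limits Myf6 at E13.5 and Tnnc2 at E10.5 and E11.5, which rest on a few counts a library.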
